A study of Mus musculus with 4 samples.

Results

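The genes described here are 7 transcripts of the sodium pump: the beta subunit genes Atp1b1, Atp1b2 and Atp1b3, and the FXYD regulator genes Fxyd1, Fxyd5, Fxyd6 and Fxyd7. They were taken by symbol from a table of 78334 gene identifiers, and all 7 were found. They were chosen by their role with the counts of this same comparison in view, so the values below are a description and carry no test. Cells were panned with Thy1 and sorted by FACS from wild type (WT) mouse retinas as retinal ganglion cells, the output neurons of the eye, 2 weeks after an optic nerve crush (ONC). In one group the eyes had received AAV2, an adeno-associated virus, encoding an anti-miR132-3p shRNA, which targets the neuronal microRNA miR-132-3p. In the other group the AAV2 carried a scramble shRNA. Both vectors also expressed mCherry, the marker used for the sort, and both groups were crushed, so no uninjured or uninjected retina is compared. Mice of both sexes aged 8 to 12 weeks were used, with the virus given at 8 weeks, 2 weeks ahead of the crush. About 40% of ganglion cells are stated to be transduced, 10 retinas were pooled per condition, and about 5000 cells went into each replicate.

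The sodium pump, or Na,K-ATPase, exports sodium and imports potassium at the cost of ATP, and it sets the ion gradients that neurons use for firing and for transport. A catalytic alpha subunit works only with a beta subunit, a glycoprotein with a single membrane span that carries the pump to the cell surface and also takes part in cell adhesion. FXYD proteins are small membrane proteins, named for a short shared motif, that bind the pump and adjust its affinity for ions in a tissue-specific way.

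The sequences that define the comparison are those of the microRNA, its relative with the same seed, and the hairpin inserts, shown to make clear what the hairpin can pair with. Mature microRNA sequences are from RefSeq (GRCm38.p6), from a cluster on the plus strand of chromosome 11, and capitals mark the seed, bases 2 to 8. In the anti-miR132-3p insert, which a search found to be the exact reverse complement of miR-132-3p, capitals mark the bases that pair with the seed.
mmu-miR-132-3p: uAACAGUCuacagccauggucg
mmu-miR-212-3p: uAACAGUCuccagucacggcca
anti-miR132-3p insert: cgaccatggctgtaGACTGTTa
scramble insert: tcgagggcgacttaaccttagg

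A 7-base match to the seed, GACTGTT, was searched on the sense strand of the longest annotated 3' UTR of each member. Of the 7 genes, Atp1b3 on chromosome 9 held a match, at position 528 of a 3' UTR of 869 bases. The match is shown in capitals with the bases around it, and no A follows it, so it is not the 8-base form.
Atp1b3 site: cgtatgctccaGACTGTTtcttacaaggt
Among 10395 genes with an annotated 3' UTR that passed the low-count filter, 1475 held this match, or 14.2%. A match is a description of the sequence and not evidence of a functional site.

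The counts table held 2 libraries per group, with totals between 1731199 and 1846637 counts. The libraries of a pair differed by no more than sampling noise, with a ratio of chi-square to its degrees of freedom of 1.00 for the anti-miR132-3p pair (p = 0.486) and 1.02 for the scramble pair (p = 0.095), against 4.01 to 4.03 across groups. Each pair was therefore counted as 1 sample, each group has n = 1, and no difference below has a replicate check. The columns of the table name miR132 or mCherry, and the mCherry columns were assigned to the scramble shRNA by exclusion, on which every direction below depends. The labels do not tie the libraries of a pair to separate animals. Levels are in CPM, the count relative to library size, scaled by TMM. In a single library, 3 counts amount to between 1.64 and 1.72 CPM. Folds are ratios of counts summed over a pair, the anti-miR132-3p shRNA over the scramble shRNA, and their exact (Clopper-Pearson) 95% intervals cover counting error only. A gene was taken as past the threshold where its fold reached 1.5 in either direction with the interval on one side of 1.

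The sodium pump genes did not move as a block. Fxyd7 was about 9-fold higher with the anti-miR132-3p shRNA, Atp1b2 was moderately higher, Atp1b1 was moderately lower, and Atp1b3, Fxyd5 and Fxyd6 lay within counting error of no difference before any correction for GC content and length. Fxyd7 was past the threshold and no member was past it on the lower side, beside 10.8% and 3.73% of the 11427 genes that passed the low-count filter. Of the 7 members, 5 passed that filter. Fxyd1 and Fxyd5 did not, and Fxyd7 passed only through its counts with the anti-miR132-3p shRNA. No member lay just inside the threshold, and the nearest retained member outside it was Atp1b2, with a fold of 1.31. Fxyd5, which was not retained, had a fold of 1.40 with 1 inside its interval. Since the genes were proposed from this contrast, nothing is read from these counts.

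**Figure D1:**
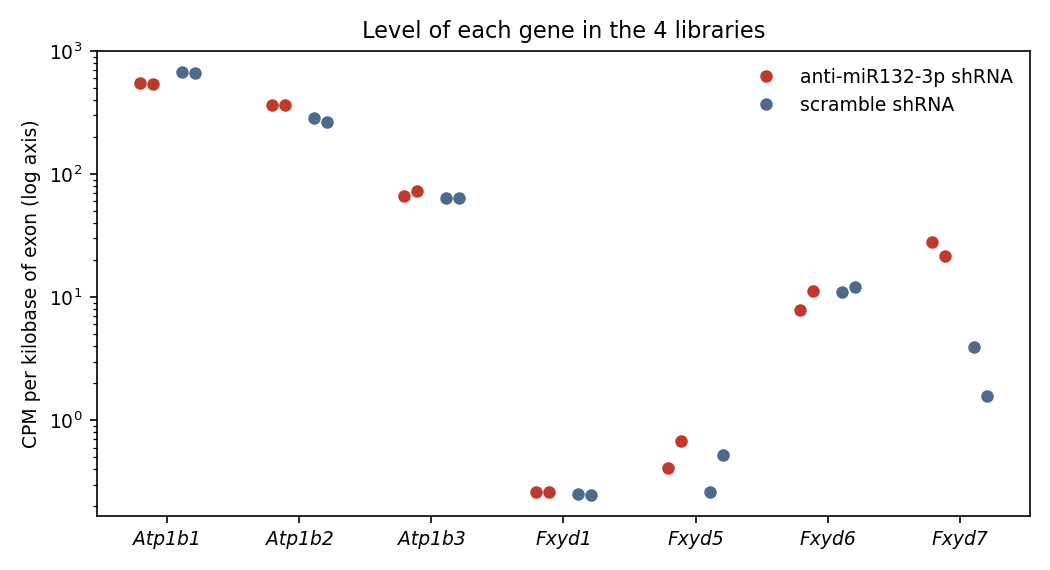
Level of each gene in CPM per kilobase of exon (log axis), with 1 point per library and the anti-miR132-3p libraries left of the scramble libraries. Fxyd7 lies at 28.1 and 21.5 CPM per kilobase in the anti-miR132-3p libraries against 3.95 and 1.58 in the scramble libraries, and the other genes keep their order of magnitude.

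Per kilobase of exon, the level of the genes followed the order Atp1b1, Atp1b2, Atp1b3, then the FXYD genes, in all 4 libraries. With the anti-miR132-3p shRNA the summed pairs stood at 547 CPM per kilobase for Atp1b1, 361 for Atp1b2, 70.0 for Atp1b3, 24.8 for Fxyd7, 9.55 for Fxyd6, 0.546 for Fxyd5 and 0.262 for Fxyd1. With the scramble shRNA they stood at 670 CPM per kilobase for Atp1b1, 275 for Atp1b2, 63.9 for Atp1b3, 11.5 for Fxyd6, 2.76 for Fxyd7, 0.391 for Fxyd5 and 0.25 for Fxyd1. By this length Fxyd7 stood above Fxyd6 with the anti-miR132-3p shRNA and below it with the scramble shRNA. By the length of the longest coding transcript their order with the anti-miR132-3p shRNA was not resolved, and in counts Fxyd6 was the higher in both groups. Fxyd5 and Fxyd1 rest on 8 or fewer counts in each group and cannot be ordered. By mean level per kilobase, Atp1b1 was at rank 26 and Atp1b2 at rank 82 of 11273 genes with a length.

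Of the beta subunits, Atp1b1 encodes the most widespread partner of the catalytic subunits in neurons and epithelia. It stood at 1706 and 1666 CPM in the anti-miR132-3p libraries, against 2081 and 2050.1 CPM in the scramble libraries. Both anti-miR132-3p libraries lay below both scramble libraries. The fold was 0.816 (0.789 to 0.845). The end of Atp1b1 overlaps Nme7 on the opposite strand, and the strand setting of the counting is not given in the sources used here. Nme7 held 76 counts beside 5891 of Atp1b1 with the anti-miR132-3p shRNA, and 88 counts beside 7557 of Atp1b1 with the scramble shRNA.

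Atp1b2 encodes the beta subunit also known as the adhesion molecule on glia, which glia and photoreceptors express as well as neurons. It stood at 1473 and 1479 CPM in the anti-miR132-3p libraries, against 1162 and 1089 CPM in the scramble libraries. The groups did not overlap, with the anti-miR132-3p libraries the higher. The fold was 1.31 (1.26 to 1.37), larger than that of 79.7% of the retained genes. In bulk samples such as these, fewer cells of a type and less RNA per cell cannot be told apart.

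Markers of other cells were summed beside Atp1b2. The 14 Müller glia markers summed to between 2307 and 2321 CPM in the anti-miR132-3p libraries, against 1761 to 1765 CPM in the scramble libraries, a fold of 1.31 (1.27 to 1.36) and none of the 14 at 0 counts in all libraries. Of 7 retained Müller glia markers, 2 were past the threshold on the higher side, Apoe with a fold of 3.31 (2.51 to 4.40) and Sox9 with a fold of 1.69 (1.09 to 2.63), and 0 on the lower, beside 10.8% and 3.73% of all retained genes. Dkk3, which neurons also express, held 5577 of 8087 of these counts with the anti-miR132-3p shRNA and 3955 of 6451 with the scramble shRNA. Without Dkk3, a choice made after seeing the data, the other 13 markers held 2510 counts with the anti-miR132-3p shRNA and 2496 with the scramble shRNA, a fold of 1.05 (0.996 to 1.11). Rlbp1 had a fold of 0.619 (0.366 to 1.03), Aqp4 of 0.393 (0.126 to 1.06) and Glul of 0.933 (0.777 to 1.12), each with 1 inside its interval. Clu, the secreted chaperone clusterin, stood at 547 CPM with the anti-miR132-3p shRNA and 553 CPM with the scramble shRNA. The 13 rod markers summed to 26.9 to 29.7 CPM in the anti-miR132-3p libraries and 98.8 to 110.02 CPM in the scramble libraries, with 4 of the 13, Gnat1 and Pde6g among them, at 0 counts. The 7 astrocyte markers summed to 1959 to 1969.9 CPM with the anti-miR132-3p shRNA and 2159.8 to 2178.5 CPM with the scramble shRNA, most of it Aldoc. The fold over all 7 was 0.906 (0.877 to 0.935). Without Aldoc, a choice made after seeing the data, the other 6 held 202 counts with the anti-miR132-3p shRNA and 291 with the scramble shRNA. Their fold was 0.727 (0.604 to 0.873). The part of these cells in the level of Atp1b2 was not tested.

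Atp1b3 encodes the third beta subunit, which is expressed in many tissues. It stood at 159.6 and 174.7 CPM in the anti-miR132-3p libraries, against 153 and 152 CPM in the scramble libraries. The anti-miR132-3p libraries lay above the scramble libraries by a small margin, and the fold of 1.09 (0.972 to 1.23) had 1 inside its interval. Atp1b3 is the member with the seed match, and whether the match bears on its level was not tested. Corrected for GC content and exon length, its fold was 1.29 (1.14 to 1.45), which is higher with the interval on one side of 1 but short of the threshold. By non-overlap of the libraries, 3 retained members were higher and 1 was lower, beside 31.3% and 30.6% of all retained genes.

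**Figure D2:**
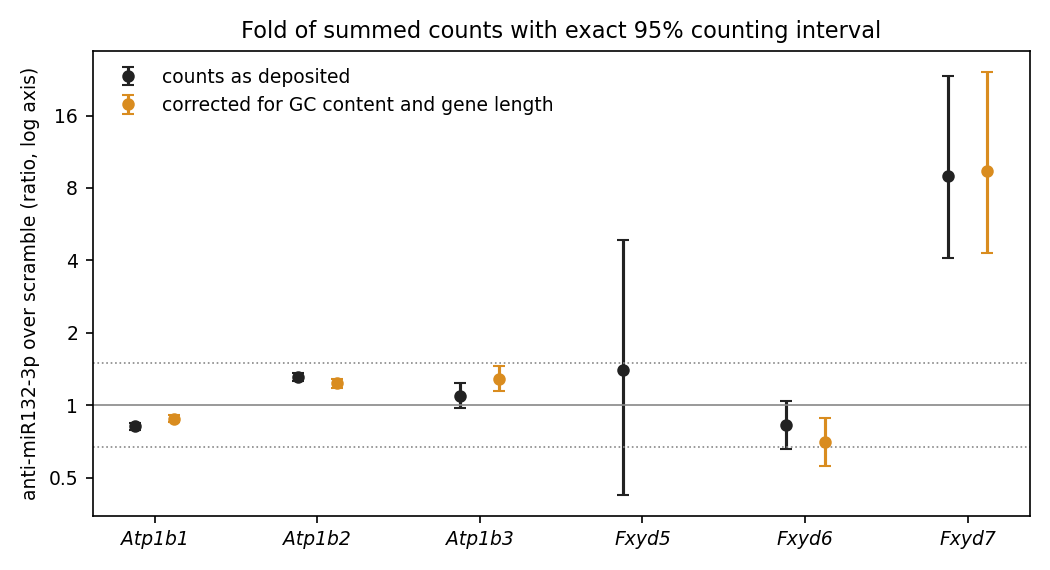
Fold of summed counts, anti-miR132-3p over scramble (ratio on a log axis), with exact 95% counting intervals, for 6 genes with more than 3 counts in a group, as deposited and, for the 5 that passed the filter, corrected for GC content and gene length. Fxyd7 at 8.98 stands apart from the other genes, whose uncorrected folds lie between 0.816 and 1.40. Dotted lines mark 1.5-fold.

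The beta subunits together were level between the groups in summed counts while their mixture differed. Their summed counts were 11632, or 3329 CPM, with the anti-miR132-3p shRNA, against 12234, or 3343 CPM, with the scramble shRNA, a fold of 0.996 (0.971 to 1.02). Per kilobase of exon their sum was slightly lower with the anti-miR132-3p shRNA, at 978 CPM per kilobase against 1009.8 with the scramble shRNA. Within each library, which needs no scaling between libraries, Atp1b2 made up 36.8% and 37.1% of the summed beta level per kilobase with the anti-miR132-3p shRNA, against 27.8% and 26.8% with the scramble shRNA. Atp1b1 made up 56.4% and 55.4% with the anti-miR132-3p shRNA, against 66.0% and 66.8% with the scramble shRNA. Atp1b3 made up 6.81% and 7.49% with the anti-miR132-3p shRNA, against 6.27% and 6.40% with the scramble shRNA. The groups did not overlap in any of these shares, which add up to the whole in a library and so are not separate results. In CPM, the groups did not overlap for 31.3% of all retained genes on the higher side and 30.6% on the lower.

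**Figure D3:**
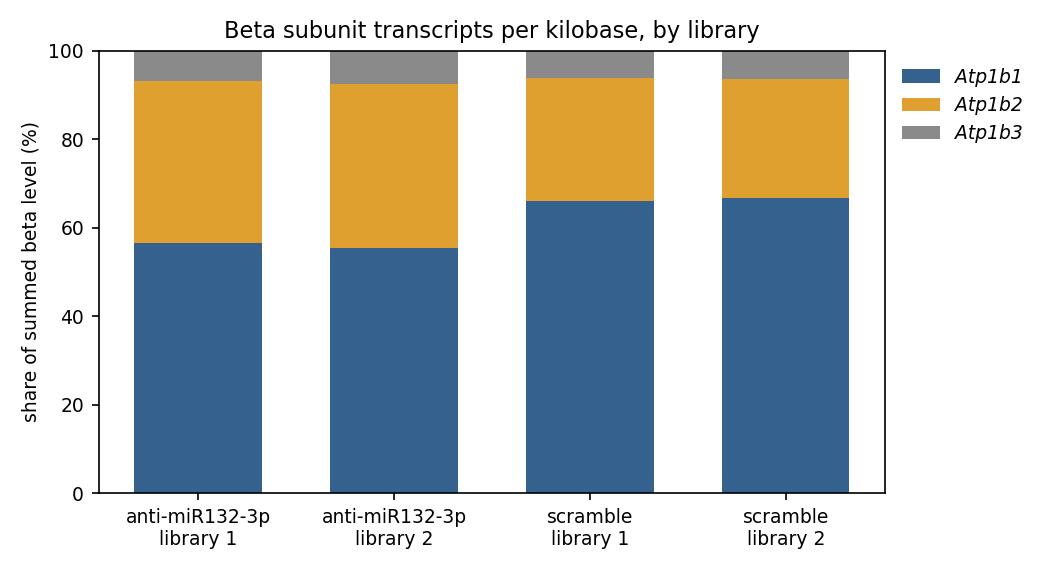
Share of the summed beta subunit level per kilobase of exon (%), stacked for Atp1b1, Atp1b2 and Atp1b3, with 1 bar per library. Atp1b2 takes 36.8% and 37.1% in the anti-miR132-3p libraries against 27.8% and 26.8% in the scramble libraries.

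The count of Atp1b2 per count of Atp1b1 was 0.875 with the anti-miR132-3p shRNA and 0.545 with the scramble shRNA, so this ratio was 1.61-fold higher (exact conditional 95% interval 1.52 to 1.70). With folds corrected for GC content and exon length it was 1.40-fold higher. The ratio of Atp1b3 to Atp1b1 counts was 0.0991 with the anti-miR132-3p shRNA and 0.0740 with the scramble shRNA, which is 1.34-fold higher (1.19 to 1.52). That of Atp1b2 to Atp1b3 was 8.83 with the anti-miR132-3p shRNA and 7.37 with the scramble shRNA, which is 1.20-fold higher (1.06 to 1.36) and 0.957-fold after the correction. The order of Atp1b2 and Atp1b3 by fold therefore depended on the correction, whereas Atp1b1 stayed below both.

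Fxyd7 encodes an FXYD regulator that is known from rodent brain, where neurons are its main site. It had 34 and 26 counts in the anti-miR132-3p libraries, against 5 and 2 counts in the scramble libraries. In CPM these were 19.4 and 14.9 in the anti-miR132-3p libraries, against 2.74 and 1.09 in the scramble libraries. The libraries of a pair differ by sampling noise only, so their closeness gives no replicate check on this difference. The fold was 8.98 (4.10 to 23.3), at rank 22 from the top of 11427 genes. Without scramble replicate 1 it was 15.7, since the remaining scramble library held 2 counts, and the other single-library omissions gave 6.27 to 10.2. The interval is wide because 7 counts carry the scramble side.

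Fxyd7 lies on chromosome 7 in a row of family genes, with Fxyd5 and Fxyd1 as its neighbours and Lgi4 and Fxyd3 beyond, in the order of RefSeq genes on GRCm38. Its neighbours had few counts in either group. Fxyd5 had 8 counts with the anti-miR132-3p shRNA and 6 with the scramble shRNA, Fxyd1 had 2 in each group, and Lgi4 and Fxyd3 had 0 in all 4 libraries. RefSeq also places a noncoding RNA, Gm38984, across the Fxyd7 gene, and the sources used here do not say how reads of overlapping genes were assigned. With 693 bases of exon, Fxyd7 is the shortest of the 7 genes, and at 58.9% it has the highest GC content in its longest transcript. The fold after correction for both was 9.37 (4.28 to 24.3).

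Fxyd6 encodes phosphohippolin, an FXYD regulator of brain and inner ear. It stood at 32.6 and 45.8 CPM in the anti-miR132-3p libraries, against 44.9 and 49.7 CPM in the scramble libraries. The groups overlapped, and the fold of 0.829 (0.658 to 1.04) had 1 inside its interval. After the correction the fold was 0.702 (0.557 to 0.884), which is lower with the interval on one side of 1 but short of the threshold. The ratio of Fxyd7 to Fxyd6 counts was 0.438 with the anti-miR132-3p shRNA and 0.0405 with the scramble shRNA, or 10.8-fold higher (4.71 to 28.8). Per kilobase of the longest coding transcript in place of all exons, Fxyd7 was at 28.1 and 21.5 CPM per kilobase and Fxyd6 at 18.2 and 25.6 in the anti-miR132-3p libraries, so that their order there lay within the spread of the pair.

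Fxyd5 encodes dysadherin, which weakens cell adhesion and is found in epithelia and leukocytes. It had 3 and 5 counts in the anti-miR132-3p libraries, against 2 and 4 in the scramble libraries. These overlap, and the fold of 1.40 (0.425 to 4.88) does not resolve a difference at this depth. The 20 markers of microglia and other leukocytes summed to 30.9 to 35.5 CPM in the anti-miR132-3p libraries and 10.9 to 16.4 CPM in the scramble libraries, with Itgam, Cd3e, Cd3g and Cd79a at 0. Cd68, the one retained marker of these, ran the other way, with 16 counts with the anti-miR132-3p shRNA and 42 with the scramble shRNA, a fold of 0.399 (0.209 to 0.725). The fold over all 20 was 2.43 (1.73 to 3.46). Without Cd68, a choice made after seeing the data, the other 19 held 100 counts with the anti-miR132-3p shRNA and 8 with the scramble shRNA. Their fold was 13.1 (6.39 to 31.1), with 8 counts on the scramble side and none of the 19 passing the low-count filter. The 9 endothelial markers summed to 22.3 to 25.2 CPM with the anti-miR132-3p shRNA and 18.6 to 19.2 CPM with the scramble shRNA, with 3 of the 9 at 0. The fold over all 9 was 1.26 (0.904 to 1.76), with 1 inside its interval. Egfl7 has the most counts of these, 39 with the anti-miR132-3p shRNA and 55 with the scramble shRNA. Without Egfl7, a choice made after seeing the data, the other 8 held 44 counts with the anti-miR132-3p shRNA and 14 with the scramble shRNA. Their fold was 3.29 (1.77 to 6.50). The part of these cells in the counts of Fxyd5 was not tested.

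Fxyd1 encodes phospholemman, the FXYD regulator of heart and skeletal muscle. It had 1 count in each of the 4 libraries, so no fold is given. The 4 FXYD genes summed to 59.2 CPM with the anti-miR132-3p shRNA and 51.4 CPM with the scramble shRNA, a fold of 1.15 (0.942 to 1.41). In counts this sum was led by Fxyd6 in both groups. Per kilobase the sum was 35.1 with the anti-miR132-3p shRNA, led by Fxyd7, and 14.9 with the scramble shRNA, led by Fxyd6.

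**Figure D4:**
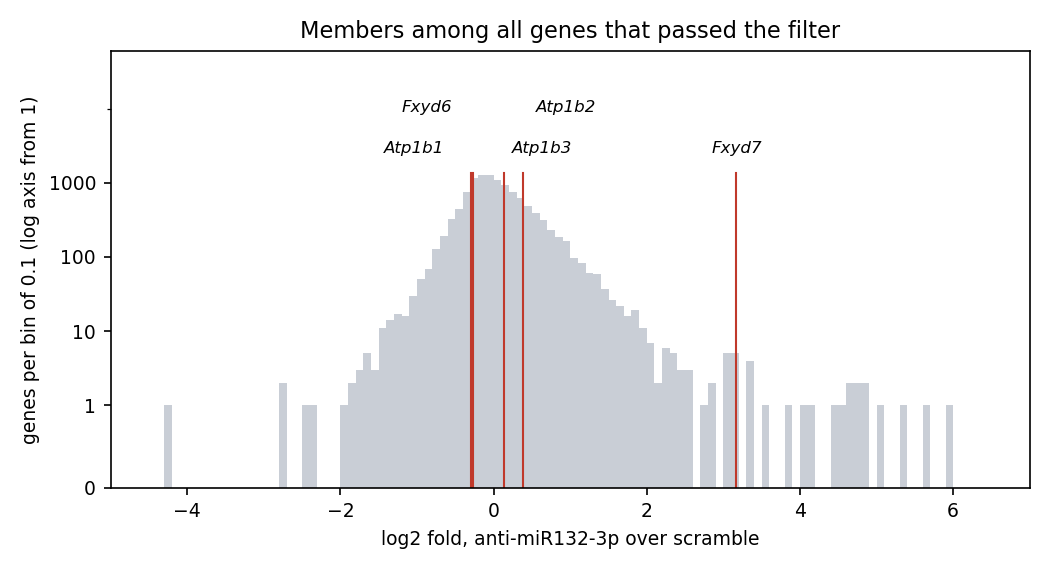
Distribution of log2 folds, anti-miR132-3p over scramble, of the 11427 genes that passed the low-count filter (grey bars, genes per bin of 0.1, log axis from 1), with red lines at the 5 retained members. Fxyd7 at 3.17 lies in the sparse right tail, and the other 4 lie between -0.29 and 0.39, within the bulk.

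With the interval alone as the rule and no minimum fold, Fxyd7 and Atp1b2 were higher and Atp1b1 was lower, 2 and 1 of the 5 retained members, beside 19.4% and 17% of all retained genes. The same genes were called higher and lower by edgeR's quasi-likelihood test fitted over all genes (Benjamini-Hochberg adjusted p under 0.05), which called 13.5% of all genes higher and 10.3% lower. That test compares the reads of these libraries and not the conditions.

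Markers were summed beside the ganglion cell label, which describes the sorted cells and does not measure their purity. Of 16 ganglion cell markers 15 passed the filter, and none of the 16 was at 0 counts. They summed to 3804 to 3865 CPM in the anti-miR132-3p libraries and 4097.5 to 4108 CPM in the scramble libraries. Their fold was 0.935 (0.913 to 0.957), and single markers differed in direction. The 12 amacrine cell markers summed to 2472 to 2506 CPM in the anti-miR132-3p libraries and 2254 to 2262 CPM in the scramble libraries, most of it Pax6, which ganglion cells also express, with 4 of the 12 at 0. Without Pax6 the other 11 held 3153 counts with the anti-miR132-3p shRNA and 2366 with the scramble shRNA, a fold of 1.40 (1.32 to 1.47). Among them, Gad2 stood at 514 CPM with the anti-miR132-3p shRNA and 373 CPM with the scramble shRNA. The ganglion cell marker Slc17a6 stood at 300 and 313 CPM in the same order, Rbpms at 41.2 and 49.5 CPM, and Pou4f1 at 27.2 and 39.9 CPM. Others of the 16 ran the other way. Thy1, used for the panning, stood at 329 and 223 CPM, Tubb3 at 360 and 253 CPM, and Nefm at 64.7 and 49.7 CPM. Pou4f2 held 7 and 8 counts. RNA of amacrine markers was thus substantial in both groups and differed between them.

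Other genes that work beside the sodium pump were taken from lists chosen for their roles, and their counts past the threshold stand beside 10.8% higher and 3.73% lower of all retained genes. Of 9 retained genes related to the sodium pump, calcium pumps among them, 1 was past the threshold on the higher side and 0 on the lower, or 11.1% and 0%. Their median log2 fold was 0.21, and 0.02 once corrected for GC content and length. Atp2b1, a plasma membrane calcium pump with the most counts in that list, stood at 800.1 CPM with the anti-miR132-3p shRNA and 854 CPM with the scramble shRNA, a fold of 0.937 (0.890 to 0.987). Atp13a1, which encodes an ATPase of the endoplasmic reticulum, was the gene past the threshold and is named after its value was seen. It stood at 51.5 CPM with the anti-miR132-3p shRNA and 26.5 CPM with the scramble shRNA, 1.94-fold higher (1.51 to 2.51).

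Of 9 retained partners and kinases of the pump, 0 were past the threshold in either direction, with a median log2 fold of 0.12. Bsg, which encodes basigin, a membrane glycoprotein that chaperones transporters, stood at 813 CPM with the anti-miR132-3p shRNA and 887 CPM with the scramble shRNA, a fold of 0.917 (0.872 to 0.965). Of 16 retained transporters that use or share the sodium and potassium gradients, 2 were past the threshold on the higher side and 1 on the lower, with a median log2 fold of 0.26, and 0.20 after the correction. The median over all retained genes was 0.00.

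Slc4a10, a sodium-coupled bicarbonate transporter with the most counts among those 16, stood at 299.6 CPM with the anti-miR132-3p shRNA and 226 CPM with the scramble shRNA, a fold of 1.32 (1.21 to 1.45). Slc8a1, a sodium-calcium exchanger, stood at 156 CPM with the anti-miR132-3p shRNA and 133 CPM with the scramble shRNA, a fold of 1.17 (1.04 to 1.33). Of the genes past the threshold, 2 are named here, after their values were seen. Slc9a7, a sodium-proton exchanger, had a fold of 1.72 (1.33 to 2.22), and Slc12a2, a sodium-potassium-chloride cotransporter, had a fold of 0.662 (0.441 to 0.984).

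**Figure D5:**
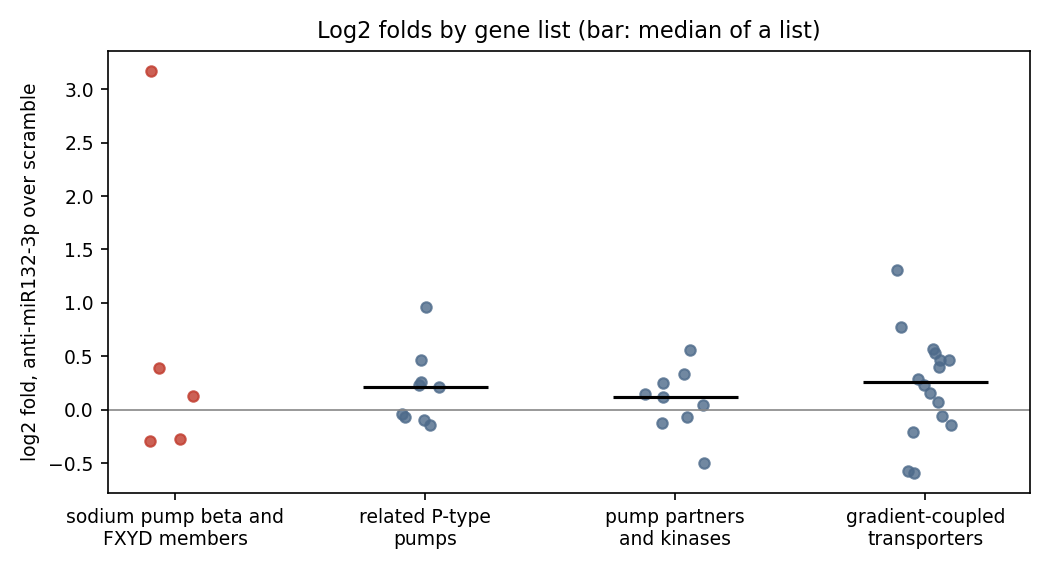
Log2 folds, anti-miR132-3p over scramble, of the 5 retained sodium pump members (red) and of retained genes in 3 lists with related roles (blue), with 1 point per gene and a bar at the median of each list. The 3 medians lie between 0.12 and 0.26, and Fxyd7 at 3.17 lies above every other point.

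The genes whose pattern was most like that of the leading member of each kind were found by the distance of centred log2 CPM over the 4 libraries, among retained genes with a mean level within 2-fold. For Atp1b1 they were Ghitm, Fam171b and Ywhah, at distances of 0.0282, 0.0303 and 0.0370 among 91 candidates. For Fxyd7 they were Psmb9, Ifi202b and Npas4, at distances of 0.212, 0.593 and 0.651 among 3597 candidates. Psmb9 stood at 9.73 CPM with the anti-miR132-3p shRNA and 1.09 CPM with the scramble shRNA. With 1 sample per group, this distance mostly measures how close the folds are.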

How the data were processed

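Whole-number counts per gene were used as deposited by the authors, from polyadenylated RNA sequenced in paired reads of 100 bases. Per the submitters' processing notes, the tools include HISAT2 2.2.1, Trimmomatic 0.39, Cufflinks and SAMtools 1.10, and the build is GRCm39. How reads were assigned to genes (tool, annotation, strand) is not given in the sources used here. The mCherry columns were assigned to the scramble shRNA by exclusion, because mCherry is on both vectors. Every direction rests on this. Symbols, lengths and 3' UTRs came from GENCODE M21 of the older build GRCm38, which named 51486 identifiers, so no coordinates are given. Identifiers with no name held 0.436% of the counts.

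R 4.3.3 with edgeR 4.0.16 gave TMM factors and the low-count filter filterByExpr (11427 genes kept, 98.6% of the counts). DESeq2 1.42.0 was an alternative. The correction subtracted from each log2 fold a spline fit (4 degrees of freedom each) on GC content and log exon length, available for 98.7% of the genes. Likeness used log2 of CPM plus 0.5. Calls and the correction were tested on simulated data. The members and lists were chosen with earlier results of these data known. Named genes by rule were all members, the 3 nearest in pattern, and a part of the 4 genes with the most counts in each list. Other list genes were named outside the rule, among them Sox9, Rlbp1, Aqp4, Rbpms, Pou4f1, Pou4f2, Thy1, Tubb3 and Nefm. The rule also covered other genes of the pump family, which are not reported here.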

Additional observations from a re-analysis of the deposited data

How the results depend on the processing

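Fxyd7 was the single member past 1.5-fold on the higher side, and 0 were on the lower side, under both other scalings, a correction of folds for GC content and length, a 2-fold threshold and each left-out library (1 to 1 higher and 0 to 0 lower). With the looser of the other fold thresholds 2 members were higher. With edgeR's quasi-likelihood test on the 4 libraries 2 were higher and 1 lower, and likewise 2 and 1 with the replicate number as a block.

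Over all genes the counts were 1230 higher and 426 lower. The looser threshold gave 1913 and 1162, and a 2-fold threshold 484 and 105, by construction. Testing unfiltered genes gave 1462 and 654, and the GC and length correction 955 and 385. The edgeR quasi-likelihood test called 1539 and 1182, and 1740 and 1437 with the replicate block. Leaving out a library was not run for this test. The DESeq2 Wald test called 477 and 276, with no adjusted p for 1330 genes. The cause of the differences between tests was not tested. Same-numbered libraries deviated together with a correlation of 0.0129. Since the libraries of a group differed by no more than sampling noise, this value cannot show whether the numbers pair the samples.

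Per kilobase of the longest coding transcript, the shares with the anti-miR132-3p shRNA were 52.0% for Atp1b1, 41.3% for Atp1b2 and 6.67% for Atp1b3, and with the scramble shRNA 62.9% for Atp1b1 and 31.1% for Atp1b2. The levels with the anti-miR132-3p shRNA were 653 CPM per kilobase for Atp1b1, 519 for Atp1b2, 83.8 for Atp1b3 and 21.9 for Fxyd6. Those with the scramble shRNA were 800.5 for Atp1b1, 396 for Atp1b2, 76.6 for Atp1b3 and 26.4 for Fxyd6. By construction these follow the length used. The corrected folds of Atp1b1, Atp1b2 and Atp1b3 were 0.878, 1.23 and 1.29. Depth limits Fxyd1 and Fxyd5, where counts this low do not show whether levels differ.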

Other observations

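Relatives of the pump that lie outside the comparisons were near or at the counting floor. Atp1b4 and Fxyd3 had 0 counts in all 4 libraries, and Fxyd4 had 5 counts with the anti-miR132-3p shRNA and 3 with the scramble shRNA. Of the gastric and colonic proton-potassium pump genes, Atp4b and Atp12a had 0 counts in all libraries, and Atp4a had 3 with the anti-miR132-3p shRNA and 2 with the scramble shRNA. The Nkain genes, which encode membrane proteins that interact with the sodium pump, were low as well. With the anti-miR132-3p shRNA, Nkain1 had 9 counts, Nkain2 5, Nkain3 9 and Nkain4 11. With the scramble shRNA, Nkain1 had 4 counts, Nkain2 1, Nkain3 14 and Nkain4 18, and none passed the low-count filter.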
